A study of Mus musculus with 6 samples.

Results

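The genes described here encode factors that join broken DNA ends or steer a break towards or away from that route: Polq, Parp1, Lig3, Xrcc1, Trp53bp1, Rif1, Lig4, Xrcc4, Xrcc5 and Prkdc. They were chosen by name from 22180 genes on the array, taking probe sets whose platform annotation names 1 gene and no other. All 10 were found, with 1 such probe set each among 23521 in the table, and 1 further probe set that names Trp53bp1 together with another gene was left out. The data were log2 expression values from 6 mouse arrays. The tumor group held 3 mammary tumors (tumors 23, 24 and 25) from Trp53L/L;Brca1L/L females, described as null for Trp53 and Brca1. These females had received the adenovirus Ad-K8-Cre into the mammary ducts several months earlier. This virus carries Cre recombinase under a keratin 8 promoter, which directs it to luminal cells. The wild-type group consisted of luminal epithelial cells in 3 samples (replicates 1, 2 and 4, each from a mouse of its own), sorted for yellow fluorescent protein (YFP) from Rosa26-Stop-YFP females 10 to 14 days after the same virus. Ages are not given, and only the wild-type cells are described as sorted. Whether the 3 tumors grew in 3 different animals is not stated, and to the extent that they share one, p-values reflect the spread within an animal. In tumor pieces, fewer cells of a type and less RNA per cell cannot be told apart.

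A double-strand break can be repaired by copying an intact sister sequence, which is homologous recombination and needs BRCA1, or by direct joining of its ends. In classical end joining, the Ku heterodimer binds the ends and recruits the DNA-dependent protein kinase, and ligase IV with XRCC4 seals them. In alternative end joining, short matching stretches exposed by trimming of the ends are paired by polymerase theta, and PARP1, XRCC1 and ligase III take part. 53BP1 and its partner RIF1 shield ends from trimming. Cells without BRCA1 cannot easily copy from a sister and rely more on the joining routes, and loss of 53BP1 is known to restore trimming in such cells.

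To show the start regions of the genes on which the results turn, RefSeq promoter sequences of build GRCm38.p6 (250 bases before to 50 after a transcript start) were matched to 8 of the 10 genes, with 9 promoters since Lig4 has 2. Those of Parp1 and Lig4, which had the largest differences between the groups, and of Polq, which lay at background, follow 5′ to 3′ as the table gives them. Capitals mark matches on either strand to 4 motifs: GGGCGG for Sp1, CCGGAAG for ETS factors, TTGGCGC or TTCCCGC for E2F, and CCAAT.
Parp1, chr1:180568641-180568940, plus strand: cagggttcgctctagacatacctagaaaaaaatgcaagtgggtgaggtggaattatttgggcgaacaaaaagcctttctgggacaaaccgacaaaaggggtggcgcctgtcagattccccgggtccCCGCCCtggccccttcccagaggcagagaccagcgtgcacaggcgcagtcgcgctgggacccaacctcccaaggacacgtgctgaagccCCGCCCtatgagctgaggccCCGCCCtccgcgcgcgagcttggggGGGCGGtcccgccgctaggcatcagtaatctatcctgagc
Lig4, chr8:9977631-9977930, minus strand: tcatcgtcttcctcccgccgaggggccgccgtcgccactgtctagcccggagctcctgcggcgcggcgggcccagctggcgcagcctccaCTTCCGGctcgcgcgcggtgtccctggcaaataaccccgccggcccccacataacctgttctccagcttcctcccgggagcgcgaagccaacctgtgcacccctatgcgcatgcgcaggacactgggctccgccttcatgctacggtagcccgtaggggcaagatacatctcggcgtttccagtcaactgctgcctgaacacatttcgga
Polq, chr16:37011536-37011835, plus strand: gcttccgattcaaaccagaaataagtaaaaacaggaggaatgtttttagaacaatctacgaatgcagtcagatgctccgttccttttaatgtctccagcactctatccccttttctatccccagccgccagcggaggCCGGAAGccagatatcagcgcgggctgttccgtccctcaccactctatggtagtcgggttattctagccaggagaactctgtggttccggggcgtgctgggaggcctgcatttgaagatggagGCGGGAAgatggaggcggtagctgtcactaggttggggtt
Parp1 held 4 matches to the Sp1 letters and none to the other motifs. Lig4 held 1 ETS match in the promoter shown, and its other promoter, not shown, held 3 matches to the Sp1 and ETS letters. Polq held 1 ETS and 1 E2F match. Over the 9 promoters, 5 held the Sp1 letters, 4 the ETS letters, 2 the E2F letters and 2 CCAAT, and no matches overlapped. Both Lig4 promoters count among those with ETS letters, which come from 3 of the 8 genes. Of all 32851 promoters of this length, 35.7% held the Sp1 letters, 8.86% the ETS letters, 6.81% the E2F letters and 37.4% CCAAT. A match is a description of letters and not a measured site.

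The question of the comparison is how tumors differ from the luminal cells that the labels name as their origin. All 10 genes had a higher mean in tumors, and none passed limma's test at an adjusted p of 0.05 over all 22180 genes. In the same fit 3.91% of all genes passed in either direction, and 2.52% of all genes passed upward. The median difference of the 10 genes, tumor minus wild type, was 0.59 log2 units, against -0.12 over all genes. The 7726 genes whose mean reached 5 were shifted upward as a whole, with a median difference of 0.32 and a higher mean in tumors for 65.1% of them, where the share over all genes was 41.7%. The 6 end joining and pathway choice genes this bright had a median difference of 0.52. The 4 with a mean under 5, Polq and Xrcc4 among them, had a median difference of 0.65. For all 14454 genes with a mean under 5 it was -0.21, and 29.2% of them had a higher mean in tumors. For 4 of the 10 genes (Parp1, Lig4, Prkdc and Trp53bp1) all 3 tumor arrays lay above all 3 wild-type arrays, as did 14.0% of all genes. At an unadjusted p under 0.05, 3 of the 10 were higher in tumors (Parp1, Lig4 and Xrcc4), against 13.4% of all genes. The direction depended on the scaling. After each array was centred on 13 housekeeping genes, which were themselves higher in tumors by a median of 0.88, the median of all genes moved to -0.74 and that of the 10 genes to -0.03. Parp1 (0.72), Lig4 (0.30), Rif1 (0.23), Prkdc (0.045) and Xrcc4 (0.008) stayed above 0 there and the other 5 turned lower. With an SE of 0.42 for Prkdc and 0.31 for Xrcc4, the direction of these genes is not settled under that scaling. The share of calls that were higher in tumors was 64.5% as deposited, 44.3% with a second quantile normalization, 52.3% with cyclic loess and 7.28% with housekeeping centring.

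**Figure D1:**
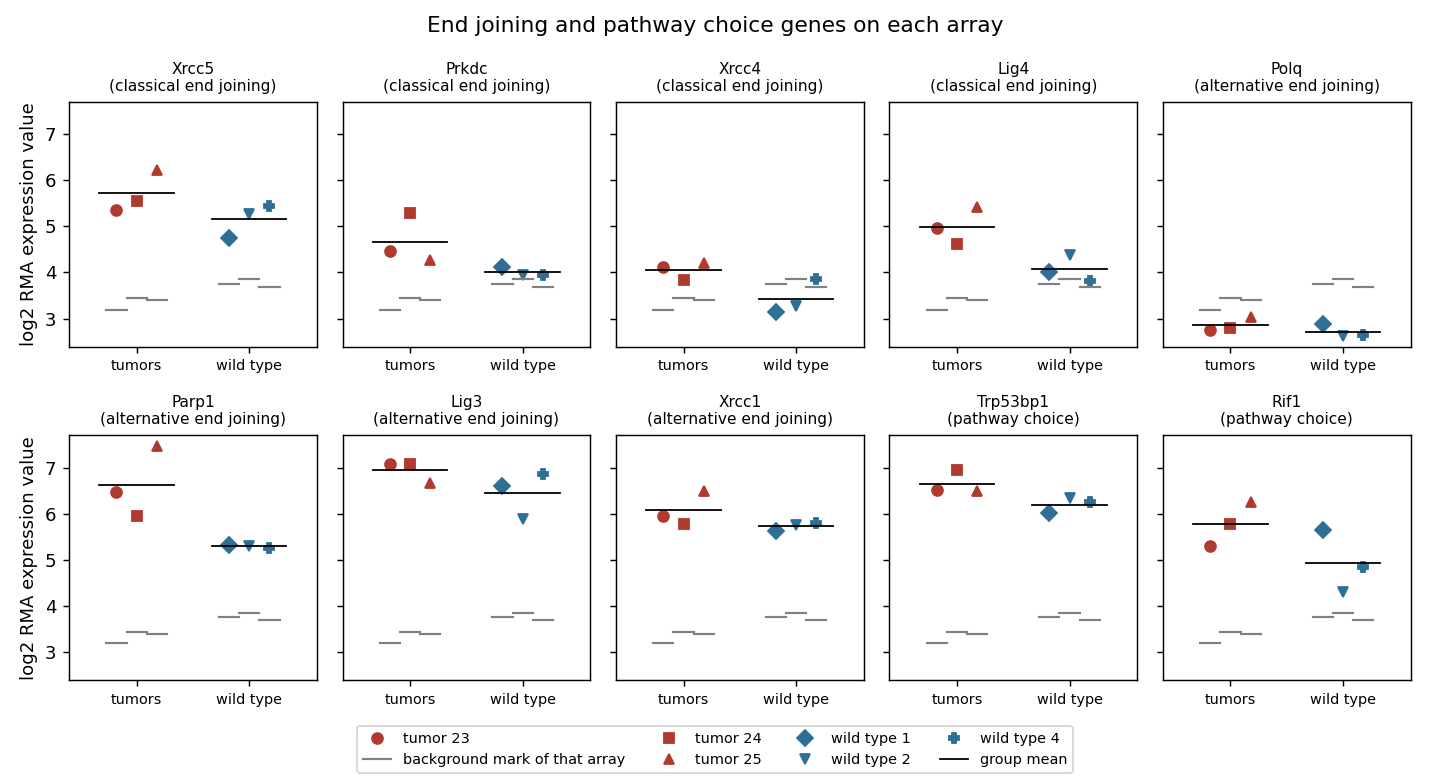
Each panel plots 1 gene, with the log2 RMA expression value of each array on the vertical axis, the 3 tumors on the left and the 3 wild-type samples on the right. Black lines are group means and grey ticks the background mark of each array. Polq lies under the mark on all 6 arrays, and the tumor points of Parp1, Lig4, Prkdc and Trp53bp1 lie above all wild-type points.

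Because the arrays come without detection calls, a background mark was set on each at the 95th percentile of 1088 olfactory receptor genes, which mammary tissue is not expected to use. The mark lay between 3.19 and 3.44 on tumor arrays and between 3.69 and 3.85 on wild-type arrays. Values under it are not told from background. Of the 10 genes, 8 lay above it on all 6 arrays, Xrcc4 lay under it on 2 wild-type arrays, and Polq lay under it everywhere.

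Among the classical end joining genes, Xrcc5 encodes the larger Ku subunit, which binds the broken end. It measured 5.36, 5.55 and 6.23 in tumors 23, 24 and 25, against 4.75, 5.26 and 5.45 in wild-type replicates 1, 2 and 4. Tumor 25 stood above every other array, while tumor 23 lay within the wild-type range. The difference was 0.56 ± 0.30 log2 units (SE, n = 3 each), with a 95% interval of -0.16 to 1.29 and an adjusted p of 0.27 in limma. It was 0.30 without tumor 25 and 0.36 without wild-type replicate 1. Prkdc encodes the catalytic subunit of the DNA-dependent protein kinase. Its values were 4.46, 5.28 and 4.27 in tumors 23, 24 and 25, against 4.13, 3.95 and 3.94 in wild-type replicates 1, 2 and 4. The groups did not overlap, tumor 24 was the highest array, and tumor 25 lay 0.26 above the wild-type mean. The difference of 0.67 ± 0.29 (SE) had an interval of -0.03 to 1.36 and an adjusted p of 0.20 in limma, and it was 0.36 without tumor 24.

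The ligation step is carried out by Lig4, DNA ligase IV, held by its scaffold Xrcc4. Lig4 measured 4.96, 4.61 and 5.41 in tumors 23, 24 and 25, against 4.02, 4.38 and 3.82 in wild-type replicates 1, 2 and 4. All tumors were above all wild-type samples, by 0.23 at the closest pair. The difference was 0.92 ± 0.27 log2 units (SE), a ratio of 1.89, with an interval of 0.28 to 1.56 that is not adjusted for the number of genes, and an adjusted p of 0.10 in limma. Xrcc4 measured 4.11, 3.84 and 4.21 in tumors 23, 24 and 25, against 3.14, 3.27 and 3.86 in wild-type replicates 1, 2 and 4. Wild-type replicate 4 exceeded tumor 24, so the groups overlapped by that pair. Since replicates 1 and 2 were under the background mark, the difference of 0.63 ± 0.25 (SE, adjusted p of 0.17 in limma) is one of RMA values and its size as expression is not settled.

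Among the alternative end joining genes, Parp1 encodes the enzyme that senses strand breaks and marks them with chains of ADP-ribose, and it is the target of the PARP inhibitors used against BRCA-deficient cancers. It measured 6.48, 5.95 and 7.46 in tumors 23, 24 and 25, against 5.32, 5.30 and 5.25 in wild-type replicates 1, 2 and 4. The wild-type values lay within 0.07 of each other, while the tumors spanned 1.51, with tumor 25 highest and tumor 24 lowest. Its difference was 1.34 ± 0.38 log2 units (SE), a ratio of 2.53 and the largest among the 10 genes, and 5.86% of all genes had a larger one. The interval was 0.44 to 2.24 and the adjusted p 0.098 in limma. Without tumor 24 the difference was 1.68 with an adjusted p of 0.045, and Parp1 was then the 1 gene of the 10 to pass, where 4.08% of all genes passed upward. Over all 6 sets that left out 1 array, its adjusted p ran from 0.045 to 0.20.

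Lig3 encodes DNA ligase III, and Xrcc1 the scaffold that stabilizes it at strand breaks. Lig3 measured 7.09, 7.08 and 6.66 in tumors 23, 24 and 25, against 6.61, 5.89 and 6.86 in wild-type replicates 1, 2 and 4. The groups overlapped, since tumor 25 lay under wild-type replicate 4, and replicate 2 was the lowest array. The difference was 0.49 ± 0.29 (SE), with an interval of -0.21 to 1.18 and an adjusted p of 0.31 in limma, and it was 0.21 without wild-type replicate 2. Xrcc1 measured 5.96, 5.79 and 6.48 in tumors 23, 24 and 25, against 5.62, 5.75 and 5.79 in wild-type replicates 1, 2 and 4. Tumor 24 fell within the wild-type range and tumor 25 stood apart from the other arrays. The difference was 0.35 ± 0.22 (SE), with an interval of -0.18 to 0.89 and an adjusted p of 0.34 in limma, and it was 0.15 without tumor 25 and -0.026 after a second quantile normalization.

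Polq encodes polymerase theta, the enzyme that defines end joining through short matching stretches. It measured 2.75, 2.79 and 3.04 in tumors 23, 24 and 25, against 2.88, 2.63 and 2.64 in wild-type replicates 1, 2 and 4. All of these lay under the background mark of their arrays, so the probe set told neither group from background. The difference was 0.15 ± 0.18 (SE), the smallest among the 10 genes, with an interval of -0.28 to 0.57 and an adjusted p of 0.59 in limma. Leaving out 1 array gave 0.056 (without tumor 25) to 0.23 (without wild-type replicate 1). RMA compresses differences this close to background, and the interval does not show that Polq transcript was equal in the groups.

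The pathway choice genes are Trp53bp1, which encodes 53BP1, and Rif1, which acts downstream of it to block trimming of ends. Trp53bp1 measured 6.51, 6.95 and 6.50 in tumors 23, 24 and 25, against 6.02, 6.34 and 6.25 in wild-type replicates 1, 2 and 4. The groups did not overlap, and tumor 24 was the highest. The difference was 0.46 ± 0.20 (SE), with an interval of -0.03 to 0.94 and an adjusted p of 0.21 in limma. Rif1 measured 5.30, 5.78 and 6.26 in tumors 23, 24 and 25, against 5.64, 4.30 and 4.85 in wild-type replicates 1, 2 and 4. Wild-type replicate 1 lay above tumor 23, and the wild-type range of 1.34 was wider than that of the tumors, 0.96. The difference was 0.85 ± 0.40 (SE), with an interval of -0.11 to 1.81 and an adjusted p of 0.23 in limma. It was 0.54 without wild-type replicate 2 and 1.21 without replicate 1.

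**Figure D2:**
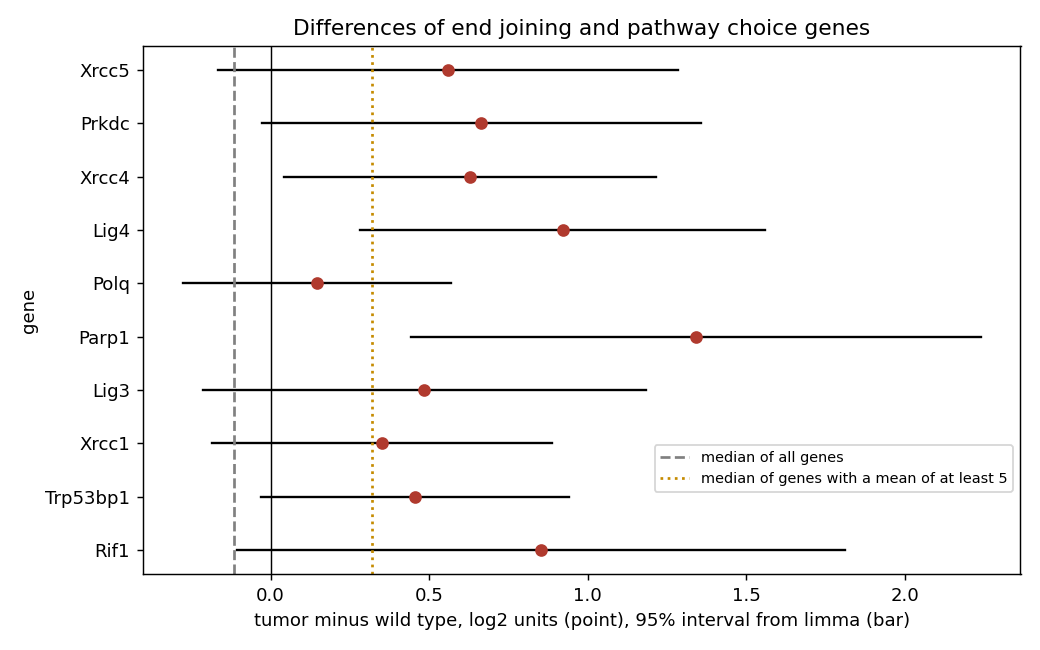
Points give tumor minus wild type in log2 units for each gene and bars the 95% interval from limma, not adjusted for the number of genes, with dashed and dotted lines at the median of all genes (-0.12) and of the brighter genes, those whose mean reached 5 (0.32). All points lie above 0, and the intervals of Parp1, Lig4 and Xrcc4 exclude 0.

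The 3 tumors differed in which of these genes stood highest. Tumor 25 had the highest tumor value for 7 genes, with Parp1 2.17, Lig4 1.34, Rif1 1.33 and Xrcc5 1.08 above the wild-type mean. These 7 include Polq, which lay under the mark, and how many of all genes were highest in tumor 25 was not counted. Tumor 24 had it for Prkdc (1.28 above) and Trp53bp1 (0.75 above), and tumor 23 for Lig3 (0.63 above). Taken as the median distance from the wild-type mean, the 10 genes stood at 0.41, 0.58 and 0.77 in tumors 23, 24 and 25, against -0.01, -0.02 and 0.00 in wild-type replicates 1, 2 and 4. The wild-type values are centred near 0 by the calculation, since their own mean was subtracted. By role, the median difference over the tumors was 0.65 for the 4 classical end joining genes, 0.42 for the 4 alternative end joining genes and 0.65 for the 2 pathway choice genes, with none called in any role. The alternative end joining median includes Polq, under the mark on all 6 arrays, while the other 3 genes of that role measured 1.34, 0.49 and 0.35.

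Other cell features moved with the groups. The mean of 20 proliferation genes was 6.80, 5.74 and 7.50 in tumors 23, 24 and 25, against 5.06, 4.18 and 4.88 in wild-type replicates 1, 2 and 4. It was highest in tumor 25, as were 7 of the 10 genes, Polq under the mark included. The mean of the housekeeping genes was also highest there, at 8.57, 8.09 and 8.68 in tumors 23, 24 and 25. The share of all genes highest in tumor 25 was not counted. Of the 20 proliferation genes 5 passed upward, against 2.52% of all genes. Among them were the proliferation marker Mki67 (2.58 ± 0.42, SE), the replication helicase subunit Mcm7 (1.98 ± 0.26) and the kinetochore gene Cenpf (1.88 ± 0.37). Leaving out 1 array, Mki67 and Cenpf passed in 1 of 6 sets and Mcm7 in 2. Cenpf lay under the mark on 2 wild-type arrays, so the size of its rise is not settled, and it lost its call after a second quantile normalization (adjusted p of 0.053) and cyclic loess (0.059). Macrophage markers (7 of 10 passed upward) averaged 6.43 to 7.22 in tumors and 4.07 to 4.78 in wild-type cells, where 3 of them lay under the mark on all arrays. Fibroblast markers (2 of 10 upward) averaged 6.17 to 7.37 in tumors and 5.45 to 5.97 in wild-type cells, and none lay under the mark on all arrays of a group. Skeletal muscle markers (0 of 10 passed limma after adjustment, 3 at an unadjusted p under 0.05) averaged 8.88, 3.70 and 5.98 in tumors 23, 24 and 25 and 3.49 to 3.67 in wild-type cells, where 5 lay under the mark throughout. Luminal epithelial markers (2 of 12 upward, 2 downward) averaged 6.54 to 7.41 in tumors and 7.98 to 8.48 in wild-type cells, and none of them lay under the mark on all 3 tumors. Of these 12, 10 had lower means in tumors, and the median difference was -1.62. At an unadjusted p under 0.05 in limma, 8 were lower and 2 higher. Over all genes 13.4% were higher at that unadjusted p, and the share lower was not counted. None of the measured lymphocyte (9), endothelial (8), basal (7) and adipocyte (7) markers passed upward, and 1 each of the last 3 lists passed downward. The part of these features in the differences of the end joining genes was not tested.

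**Figure D3:**
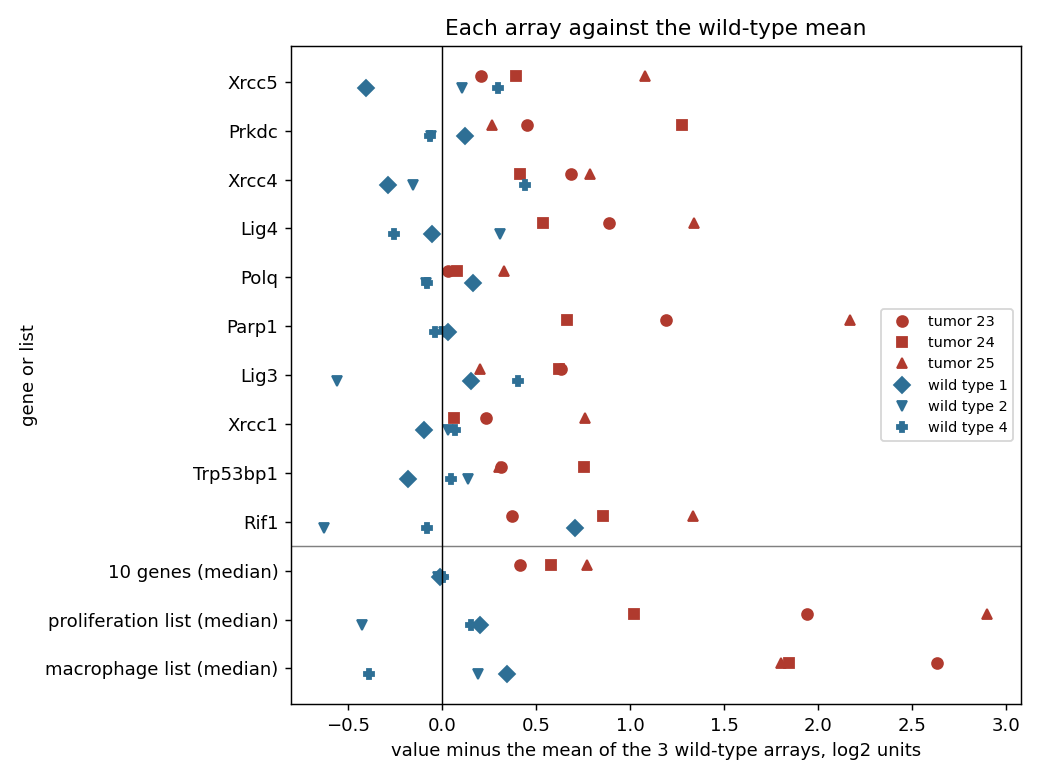
Each row gives a gene, or the median of a gene list, on every array as the log2 value minus the mean of the 3 wild-type arrays, with tumors in red and wild-type arrays in blue. Tumor 25 is highest for 7 genes (Polq, under the mark, among them) and for the proliferation list (2.90), while tumor 24 is highest for Prkdc and Trp53bp1.

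Partners of the same routes were read from lists of named genes. Of 9 measured partners of classical end joining, none passed limma after adjustment (3 were higher at an unadjusted p under 0.05) and all 9 had higher means in tumors, with a median difference of 0.66. Over all genes, 13.4% were higher at that unadjusted p and 41.7% had a higher mean. The largest differences were those of Poll, polymerase lambda, which fills gaps at ends, and of Xrcc6, the smaller Ku subunit and partner of Xrcc5. Poll measured 5.24, 5.54 and 5.96 in tumors 23, 24 and 25, against 3.97, 3.93 and 4.73 in wild-type replicates 1, 2 and 4, a difference of 1.37 ± 0.30 (SE, adjusted p of 0.061 in limma). Xrcc6 measured 5.82, 4.94 and 5.79 in tumors, against 4.22, 4.21 and 4.45 in wild-type cells, a difference of 1.22 ± 0.28 (SE, adjusted p of 0.065 in limma). Neither overlapped between the groups, whereas Xrcc5 did. Without tumor 24, where 4.08% of all genes passed upward, Xrcc6 passed with a difference of 1.51 and an adjusted p of 0.023 in limma. Xrcc6 also passed with array weights (0.038), and Poll passed among genes of at least median brightness (0.044). Of 14 alternatives each, Xrcc6 passed in 2 and Poll in 1.

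Of 12 measured partners of alternative end joining and single-strand break repair, none passed (4 were higher at an unadjusted p under 0.05 in limma), 8 had higher and 4 lower means in tumors, and the median difference was 0.58. The shares over all genes were 13.4% higher at that unadjusted p and 41.7% with a higher mean. Tdp1, which frees DNA ends from trapped topoisomerase, measured 5.38, 5.79 and 5.89 in tumors, against 4.89, 4.68 and 4.64 in wild-type cells. Its difference was 0.95 ± 0.20 (SE, adjusted p of 0.056 in limma), and the groups did not overlap. Tdp1 passed in 0 of 15 alternatives, and its difference was 0.33 after housekeeping centring (adjusted p of 0.43 in limma). Fen1, a flap endonuclease of replication and repair, measured 3.97, 2.93 and 5.30 in tumors, against 3.06, 2.62 and 3.69 in wild-type cells. These groups overlapped, the wild-type values and tumor 24 lay under the mark, and the difference was 0.94 ± 0.60 (SE, adjusted p of 0.34 in limma). A dimmer probe set of Fen1 was lower in tumors, with a difference of -0.39.

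Of 16 measured genes around 53BP1 and the shieldin complex, none passed (4 were higher and 1 lower at an unadjusted p under 0.05 in limma), 11 had higher and 5 lower means in tumors, and the median difference was 0.56. Among all genes, 13.4% were higher at that unadjusted p and 41.7% had a higher mean. The share of all genes lower at that unadjusted p was not counted. H2ax, the histone whose phosphorylation marks breaks, measured 10.24, 7.21 and 10.59 in tumors 23, 24 and 25, against 7.74, 6.34 and 7.47 in wild-type replicates 1, 2 and 4. Tumor 24 lay within the wild-type range, and the difference of 2.16 ± 0.91 (SE) had an adjusted p of 0.19 in limma. Without tumor 24 it was 3.23 with an adjusted p of 0.025, where 4.08% of all genes passed upward. H2ax passed in 1 of 15 alternatives, and with 1 array left out its adjusted p in limma reached 0.39. Paxip1, which encodes the 53BP1 partner PTIP, measured 6.38, 6.93 and 7.30 in tumors, against 6.04, 4.98 and 5.73 in wild-type cells, without overlap. Its difference was 1.29 ± 0.35 (SE, adjusted p of 0.094 in limma), and that of its dimmer probe set was 0.54 (adjusted p of 0.33 with probe sets tested singly).

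End resection and recombination genes were listed for comparison. Trimming of ends competes with classical end joining, but it also exposes the matching stretches that alternative end joining uses. Of 18 measured, 3 passed upward and none downward, where 2.52% of all genes passed upward. At an unadjusted p under 0.05 in limma 9 were higher, against 13.4% of all genes. All 18 had higher means in tumors, as did 41.7% of all genes, and the median difference was 0.84. Mre11a, the nuclease that starts trimming, measured 6.17, 5.58 and 5.97 in tumors, against 4.82, 4.22 and 4.60 in wild-type cells, a rise of 1.36 ± 0.24 (SE, adjusted p of 0.039 in limma). Brca2, which loads the recombinase, measured 4.99, 5.52 and 5.16 in tumors, against 3.72, 3.29 and 3.29 in wild-type cells. Its RMA values rose by 1.79 ± 0.22 (SE, adjusted p of 0.018), but all 3 wild-type values lay under the mark, so the size as expression is not settled. Brca1, the targeted gene, measured 4.10, 3.74 and 3.79 on the arrays labelled tumor, against 2.81, 2.99 and 2.99 in wild-type cells, a difference of 0.94 ± 0.18 (SE, adjusted p of 0.044). It too lay under the mark on all 3 wild-type arrays, which leaves its size unsettled as well. Of the 6 sets that left out 1 array, Brca2 passed in 3, Mre11a in 1 (that without tumor 24) and Brca1 in 0. Mre11a also lost its call after a second quantile normalization (adjusted p of 0.055), with the trended robust prior (0.051) and after housekeeping centring (0.083, with a difference of 0.74). Brca1 lost its call after housekeeping centring (0.38, with a difference of 0.32). The list had no call without tumor 23 or without wild-type replicate 2 or 4, and 1 without tumor 25 or without replicate 1. Neither the exons removed nor the place of the probes is stated, so the Brca1 value is no check of the genotype, and Trp53 was not analysed here. Whether the joining and the resection genes differed in their change was not tested.

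**Figure D4:**
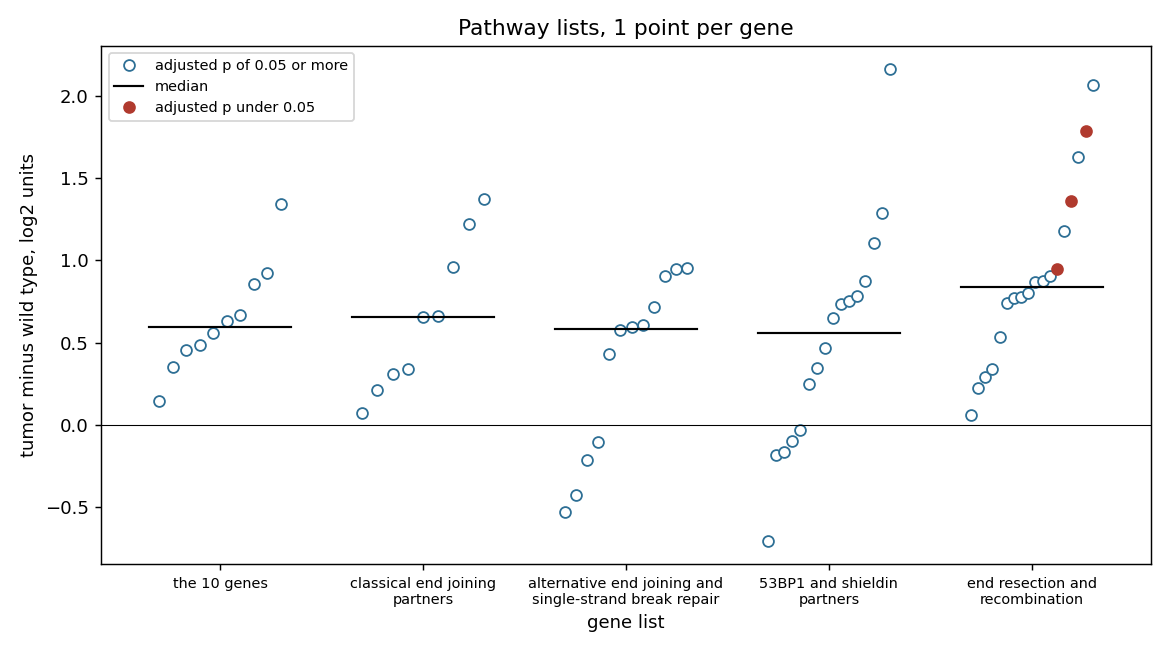
Each point is 1 gene, placed by its difference, tumor minus wild type in log2 units, in the 10 end joining and pathway choice genes and 4 lists of partner genes, with a line at each median. Filled points passed limma at an adjusted p under 0.05, and these 3 (Brca1, Brca2 and Mre11a) are all in the end resection and recombination list.

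The scaling of the arrays bears on every difference above. For Parp1 the difference was 1.34 as deposited, 0.98 with a second quantile normalization, 1.04 with cyclic loess and 0.72 with housekeeping centring. Lig4 measured 0.92, 0.69, 0.80 and 0.30 under the same 4 settings. Trp53bp1 measured 0.46, 0.14, 0.16 and -0.16. Parp1 and Lig4 were higher in tumors under each of these 4 scalings, without passing the test, while the sign of Trp53bp1 turned under housekeeping centring.

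**Figure D5:**
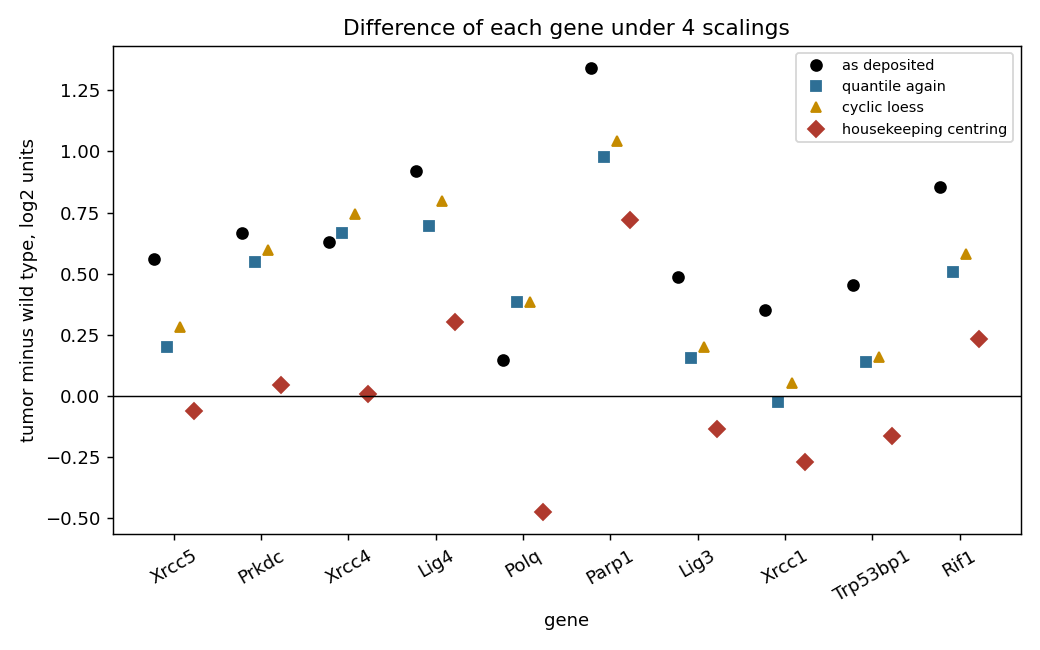
The vertical axis gives tumor minus wild type in log2 units for each gene under 4 scalings of the same arrays. Parp1, Lig4, Rif1, Prkdc and Xrcc4 lie above 0 under all 4, and Xrcc5, Polq, Lig3, Xrcc1 and Trp53bp1 lie below 0 after housekeeping centring. Prkdc (0.045) and Xrcc4 (0.008) are barely above 0 after that centring.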

How the data were processed

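Total RNA of 6 samples (3 tumors, 3 wild-type) was amplified with a NuGEN kit, labelled with biotin and hybridized to arrays, per the labels' protocols. Each deposited value is the log2 expression of a probe set on 1 array. The authors made it with oligo and RMA, per the submitters' processing notes, which give no versions; RMA corrects background, equalizes the arrays' distributions and summarizes probes, and it compresses differences near background. Of 41345 probe sets, 23521 named 1 gene, 1814 several and 16010 none in the platform annotation. Symbols of 23328 were updated by Entrez identifier from RefSeq (GRCm38.p6). The brightest probe set by mean stood for each of 22180 genes. No scanner files were used, so no batch could be tested, and precision is limited by having 3 arrays a group.

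Groups were compared with lmFit and eBayes of limma 3.58.1 in R 4.3.3, two-sided, without covariates or filter, with Benjamini-Hochberg adjustment over 22180 genes and a threshold of 0.05; an adjusted p is from this fit unless a sentence names another setting, whose own fit and number of genes then apply. Intervals are limma's 95% intervals. The fit was tested on simulated data with independent noise for each gene and array. Those data had no scaling differences between arrays and no shared animals, so that test does not bear on either. The genes and lists were chosen with earlier results of these data known. Named genes are the 10 genes, Brca1, and from each partner list the 3 largest called changes or, where none passed, the 2 largest differences. Some listed genes had no probe set naming them alone and were not analysed here. Alternatives were 2 filters on dim genes, 2 treatments of multiple probe sets, quantile normalization again, cyclic loess, housekeeping centring, a trended robust prior, array weights and leaving out each array.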

Additional observations from a re-analysis of the deposited data

How the results depend on the processing

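Of 144 values of the 10 genes under the alternatives, 137 kept their direction and their side of the threshold, 6 reversed and 1 came to pass. Not all 144 could change direction. Each gene has 1 probe set, so both treatments of multiple probe sets returned the same difference. The filters on dim genes and the trended robust prior also left the difference unchanged by construction. The 137 are therefore not independent checks. The reversals were those of Xrcc5 (-0.059), Polq (-0.47), Lig3 (-0.13), Xrcc1 (-0.27) and Trp53bp1 (-0.16) after housekeeping centring, which by construction subtracts the higher level of those genes in tumors, and of Xrcc1 (-0.026) after quantile normalization again, where the cause was not tested. Leaving out 1 array at a time, Parp1 ranged from 0.93 to 1.68 and passed without tumor 24, which made the count of the 10 genes called 1, against 0 with all arrays and with every other array left out. The count over all genes was 867, with 7523 after housekeeping centring, 1324 with array weights, and 72 (without wild-type replicate 4) to 1200 (without tumor 24) with 1 array left out. It was 138 without replicate 1, 170 without replicate 2, 142 without tumor 23 and 375 without tumor 25. Among the partner genes, the dimmer probe set of Fen1 reversed (-0.39). The filter on a mean of at least 5 left out Prkdc, Xrcc4, Lig4 and Polq. No paired analysis was possible because the labels give the groups no shared replicate numbers.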
